A study of Mus musculus with 24 samples.

Results

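Circular RNAs of cardiac fibroblast preparations were compared between mice 4 weeks after transverse aortic constriction (TAC) and mice 4 weeks after a sham operation. The comparison takes in every circular RNA of the authors' table, 1717 from 1187 host genes, in 4 TAC and 5 sham libraries out of the 24 libraries of the series. All 9 libraries came, per the labels, from hearts of male C57BL/6J mice, with no transgene or deletion named, operated on at 8 weeks of age; the TAC mice had a suture tied around the transverse aorta over a needle that was then withdrawn. Cells were released by Langendorff perfusion, and the labels name no sorting step that would select fibroblasts by a marker. Whether each library came from its own animal is not stated, so every p-value below refers to the spread among these libraries, part of which may be technical.

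A circular RNA forms when the splicing machinery joins the end of a downstream exon back to the start of an upstream exon of the same transcript. The closed molecule lacks free ends, which makes it resistant to exonucleases, and it is read in RNA sequencing only through the reads that cross this back-splice junction. Pressure overload of the left ventricle makes cardiac fibroblasts divide, turn into contractile myofibroblasts and lay down collagen, and the series concerns circular RNA in that fibrosis.

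The junction is what identifies a circular RNA, so the joins that carry the main differences are shown first. Each is written 5′ to 3′ with the last bases of the last exon in lower case and the first bases of the first exon in capitals, taken from GENCODE transcripts of the files' build, mm10, and not from reads. The pair from Ttn came from the minus strand at chr2:76857904-76881839 (exons 85 to 118) and chr2:76857904-76884197 (exons 84 to 118). They share the exon 118 side of the join and differ in the exon it returns to, and exon 84 adds 288 bases.
Ttn exons 85 to 118: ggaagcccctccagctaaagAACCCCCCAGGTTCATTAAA
Ttn exons 84 to 118: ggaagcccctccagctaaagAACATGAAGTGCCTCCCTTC

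The circular RNAs with the smallest p among those higher in TAC came from Pik3c2a (chr7:116387844-116391393, minus strand, exons 5 to 8), Efnb2 (chr8:8639206-8639489, minus strand, exon 2), Rabep1 (chr11:70874746-70884968, plus strand, exons 2 and 3) and Vav3 (chr3:109525869-109528384, plus strand, exons 13 to 15). From those lower in TAC, the most read of the 12 with the smallest p and a pair from macrophage marker genes are shown: Med13l (chr5:118593333-118593570, plus strand, exon 2), F13a1 (chr13:36943891-36968125, minus strand, exons 6 to 8) and Adgre1 (chr17:57419322-57420524, plus strand, exons 11 and 12). A single-exon circle such as those of Efnb2 and Med13l joins the end of 1 exon to its own start.
Pik3c2a exons 5 to 8: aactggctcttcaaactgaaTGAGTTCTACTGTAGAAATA
Efnb2 exon 2: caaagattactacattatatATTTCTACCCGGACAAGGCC
Rabep1 exons 2 to 3: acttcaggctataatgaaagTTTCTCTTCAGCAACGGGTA
Vav3 exons 13 to 15: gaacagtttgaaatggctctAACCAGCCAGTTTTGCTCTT
Med13l exon 2: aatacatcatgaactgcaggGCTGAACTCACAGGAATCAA
F13a1 exons 6 to 8: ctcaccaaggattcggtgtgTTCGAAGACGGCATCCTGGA
Adgre1 exons 11 to 12: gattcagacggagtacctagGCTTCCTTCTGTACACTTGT

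The libraries were shallow. Sham libraries held 3618 to 6524 junction reads and TAC libraries 6846 to 9146, a difference of 2314 reads with no overlap (exact permutation test, two-sided, p = 0.0159, the smallest that 5 against 4 libraries allow). The median circular RNA had 2 reads per library, 558 had a read in all 9 libraries and 324 had a mean of at least 5 reads. Values below are normalized reads, that is, junction reads scaled by the authors for library size with their added 0.01 removed; 1 read was worth 0.868 to 1.57 in sham libraries and 0.642 to 0.845 in TAC libraries. Since all TAC libraries were deeper, a circular RNA at 0 is a stricter statement in TAC than in sham.

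Of the 1717 circular RNAs, 2 fell in TAC and none passed the test as higher. Both that fell came from Ttn, the gene of titin, the giant elastic protein of the sarcomere. With limma over all 24 libraries and Benjamini-Hochberg adjustment, the share called was 0.116% for lower and 0.0% for higher. At an unadjusted p under 0.05, 88 were higher (5.13%) and 49 lower (2.85%). Every TAC library lay above every sham library for 40 (2.33%) and below for 21 (1.22%). Over all circular RNAs the median log2 fold change was 0.12; it was 0.23 with a pseudocount of 0.1, -0.03 with limma-voom and -0.004 with junction reads per library as a covariate. Limma-voom, run on the recovered reads, called 3 higher and 4 lower, with 83 higher and 89 lower at an unadjusted p under 0.05, so the lean towards higher values among unadjusted results was absent there. With TMM scaling, and with median-of-ratios size factors, the calls were 3 higher and 3 lower. A fit of the 9 libraries alone called 8 higher and 6 lower.

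**Figure D1:**
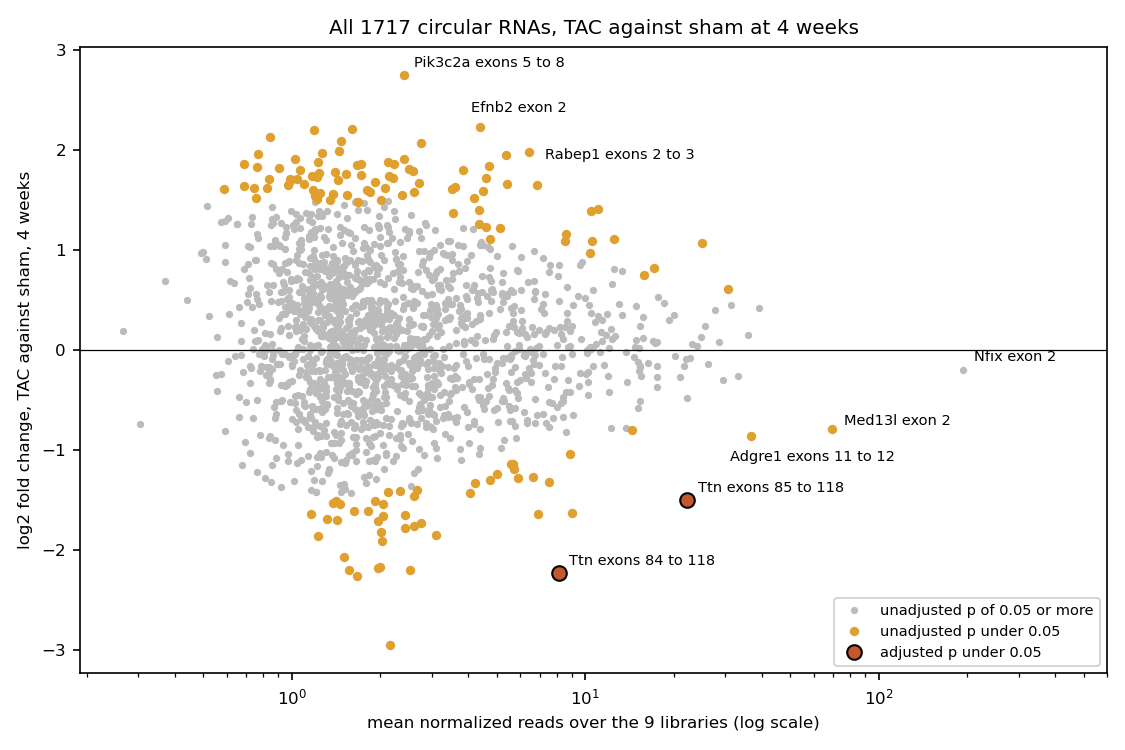
Log2 fold change of TAC against sham at 4 weeks (y axis) against mean normalized reads over the 9 libraries on a log scale (x axis), 1 point per circular RNA. The 2 called circular RNAs, both of Ttn, lie below 0 at -1.51 and -2.23, while the widest fold changes in both directions belong to circular RNAs with few reads.

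The circular RNA of Ttn exons 85 to 118 (34 exons, 6213 bases, all coding) measured 29.9, 23.6, 51.2, 31.6 and 20.3 normalized reads in sham replicates 1 to 5 and 12.7, 13.2, 4.36 and 14.1 in TAC replicates 1 to 4. Each TAC library was below each sham library, with TAC replicate 3 lowest and sham replicate 3 highest. It fell from 31.3 ± 12 (SD, n = 5) to 11.1 ± 4.53 (n = 4), a log2 fold change of -1.51 ± 0.34 (SE; limma adjusted p = 0.0232). Log2 fold changes here are differences of the group means of log2(normalized reads + 0.5). For scarce circular RNAs they can understate a change, or exceed or oppose that of the mean normalized reads. Tns1 exons 7 to 18, named after its value was seen, had means of 4.76 in sham and 4.27 in TAC. Its log2 fold change was 0.10.

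The longer form, Ttn exons 84 to 118 (35 exons, 6501 bases), measured 15.9, 12.6, 19.1, 9.16 and 6.45 normalized reads in sham and 3.38, 1.47, 0.726 and 4.50 in TAC. The groups again did not overlap, and TAC replicate 3 was again lowest. It fell from 12.6 ± 5.06 to 2.52 ± 1.73, a log2 fold change of -2.23 ± 0.53 (limma adjusted p = 0.0274). Both spliced lengths are multiples of 3.

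The third Ttn circle, of exons 104 to 110 (chr2:76863274-76868085), lies inside the other two and shares neither end with them. It measured 2.80, 3.14, 5.21, 0 and 1.84 in sham and 4.23, 0, 1.45 and 1.93 in TAC, so the groups overlapped over most of their range. Its log2 fold change was -0.39 ± 0.73 (limma adjusted p = 0.952), and 0.23 without TAC replicate 2, on 13 sham and 10 TAC reads. Whether its change differs from that of the longer circles was not tested.

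Together the 3 Ttn circles took 0.495% to 1.33% of the junction reads of a sham library and 0.113% to 0.351% of a TAC library. Within the pair that ends at exon 118, the exon 84 form made up 22.5% to 34.8% of reads in sham libraries (28.4% pooled) and 10.0% to 24.1% in TAC libraries (18.7% pooled). These ranges overlap, and the TAC shares rest on 14 reads of the exon 84 form in all. Fewer cells of a type in a preparation and less RNA per cell cannot be told apart in such bulk libraries.

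Both Ttn calls were lost without sham replicate 1, 3 or 4 or without TAC replicate 3 (limma adjusted p 0.0548 to 0.54 for exons 85 to 118 and 0.0548 to 0.484 for exons 84 to 118). The longer form also lost its call without TAC replicate 2 (0.129) and without the 2 sham libraries whose names carry no number (0.266). They were also lost with a pseudocount of 0.1 (0.0648 and 0.0901) and with junction reads per library as a covariate, where the log2 fold changes were -1.17 and -1.73 (0.601 and 0.728).

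**Figure D2:**
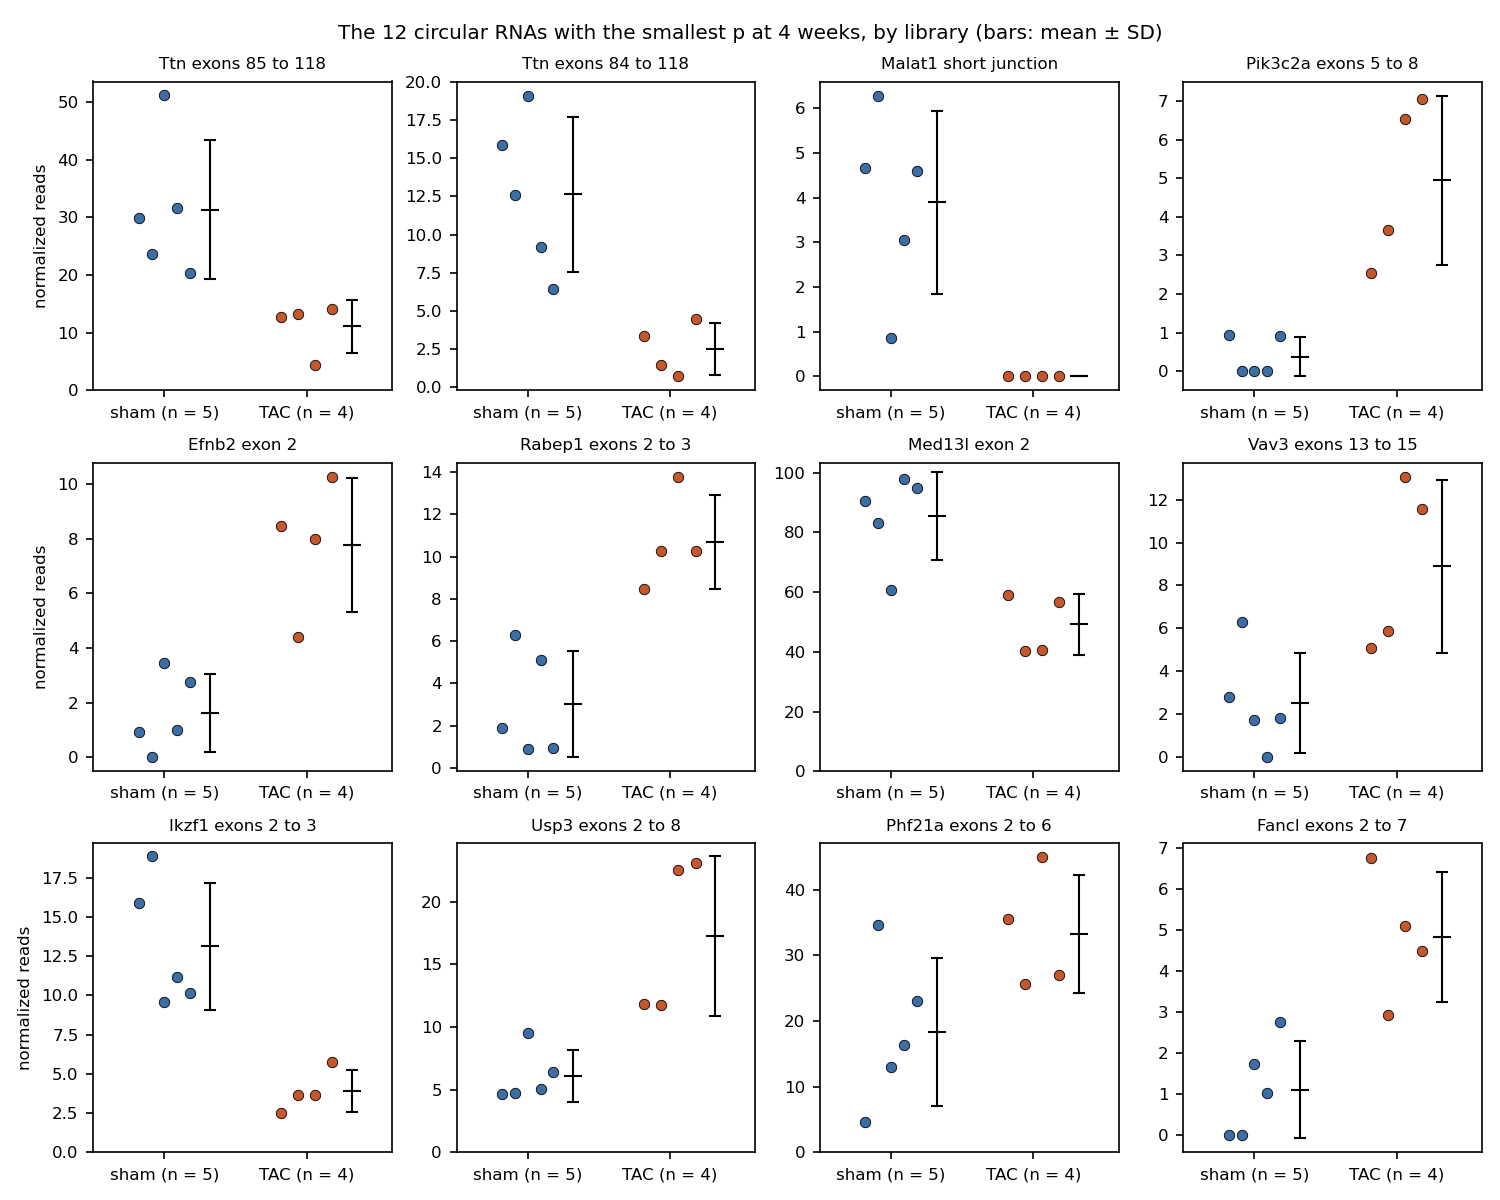
Normalized reads (y axes, each with its own scale) of the 12 circular RNAs with the smallest p at 4 weeks, 1 point per library, with the mean and SD beside each group of 5 sham and 4 TAC libraries. The groups overlap for Vav3 and Phf21a and in no other panel, and the short Malat1 junction is at 0 in all TAC libraries.

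None of the circular RNAs higher in TAC passed the test; those of Pik3c2a, Efnb2 and Rabep1 had the smallest p. Pik3c2a encodes a class II phosphoinositide 3-kinase that works in clathrin-mediated endocytosis. Its circle of exons 5 to 8 measured 0.934, 0, 0, 0 and 0.921 in sham and 2.54, 3.67, 6.54 and 7.07 in TAC. All TAC libraries were above all sham libraries, on 2 sham and 28 TAC reads (log2 fold change 2.74 ± 0.71, limma adjusted p = 0.0509).

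Efnb2 encodes ephrin-B2, a membrane ligand of Eph receptors found on arterial endothelium and other cells. Its exon 2 circle measured 0.934, 0, 3.47, 1.02 and 2.76 in sham and 8.45, 4.40, 7.99 and 10.3 in TAC (2.23 ± 0.59, limma adjusted p = 0.0672). The groups did not overlap, and the value was 1.06 with junction reads as a covariate. Rabep1 encodes rabaptin-5, an effector of the early endosome GTPase Rab5. Its circle measured 1.87, 6.28, 0.868, 5.09 and 0.921 in sham and 8.45, 10.3, 13.8 and 10.3 in TAC (1.98 ± 0.54, limma adjusted p = 0.077), again with no overlap.

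Vav3, a guanine nucleotide exchange factor, had 2.80, 6.28, 1.74, 0 and 1.84 in sham and 5.07, 5.87, 13.1 and 11.6 in TAC for exons 13 to 15 (1.95 ± 0.57, limma adjusted p = 0.133). Sham replicate 2 was above TAC replicates 1 and 2. A further Vav3 circle, exons 16 to 19, measured 10.7 ± 5.33 in sham and 16.7 ± 1.74 in TAC (0.79, 0.718), and the third, named after its value was seen, was at -0.69. Usp3, a deubiquitinase that acts on histones, had 4.67 to 9.55 in sham (median 5.09) and 11.8, 11.7, 22.5 and 23.1 in TAC (1.41 ± 0.44, 0.223), with no overlap.

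Phf21a, a reader subunit of a histone demethylase complex, was the most abundant of the 12 higher circles with the smallest p: exons 2 to 6 had 4.67, 34.6, 13, 16.3 and 23.0 in sham and 35.5, 25.7, 45.0 and 27.0 in TAC (1.07 ± 0.34, limma adjusted p = 0.281). Sham replicate 2 lay within the TAC range. Fancl, the ubiquitin ligase of the Fanconi anaemia pathway, had 0 to 2.76 in sham and 2.93 to 6.76 in TAC (2.07 ± 0.66, 0.281). Cnot4, a ubiquitin ligase of the CCR4-NOT deadenylase complex, had 0.868 to 3.74 and 5.87 to 10.2 (1.84 ± 0.62, 0.281). Neither Fancl nor Cnot4 overlapped between the groups. The others of the 12 were Tcf25, Esco1, Acbd3 and Rmdn2, at 1.39 to 2.21.

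Sham replicate 3 stood high in several of these: Tcf25 had 13.9 there and 2.04 to 12 in the other sham libraries, Esco1 exons 5 to 7 had 9.55 against 0.921 to 3.14, and Rmdn2 had 10.4 against 0 to 1.87. For Rmdn2, a microtubule-associated protein, that library was above every TAC library (3.38 to 8.80).

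Of the 12 lower circular RNAs with the smallest p, that of Med13l had the most reads. It encodes a subunit of the Mediator kinase module, which links transcription factors to RNA polymerase II. Its exon 2 circle measured 90.6, 83.3, 60.7, 97.7 and 94.9 in sham and 59.2, 40.3, 40.7 and 56.5 in TAC. The highest TAC library lay just under the lowest sham library, so the groups did not overlap (85.5 ± 14.9 and 49.2 ± 10.1; log2 fold change -0.79 ± 0.22, limma adjusted p = 0.1).

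Ikzf1 encodes Ikaros, a transcription factor of blood cell lineages. Its circle of exons 2 and 3 measured 15.9, 18.9, 9.55, 11.2 and 10.1 in sham and 2.54, 3.67, 3.63 and 5.78 in TAC, with no overlap (-1.63 ± 0.48, limma adjusted p = 0.146). Adgre1 encodes an adhesion receptor by which mouse macrophages are commonly identified. Its circle of exons 11 and 12 measured 48.6, 69.1, 19.1, 51.9 and 40.5 in sham and 31.3, 35.9, 10.2 and 24.4 in TAC (-0.86 ± 0.30, 0.281); sham replicate 3 lay below 3 of the TAC libraries. With junction reads as a covariate its value was -0.48.

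F13a1, the coagulation factor XIII A chain made by resident macrophages, had 5.61, 3.14, 2.60, 2.04 and 0.921 in sham and 0, 0.734, 0 and 0 in TAC for exons 6 to 8 (-2.27 ± 0.76, limma adjusted p = 0.281), 14 reads against 1. Zbtb16 encodes a zinc finger transcription factor. Its circle of exons 3 and 4 was read 13 times, in 4 of the 5 sham libraries, and not in TAC. That is at least 5.11-fold lower against a floor of 3 reads over the 4 TAC libraries (0.281). The other Zbtb16 circle, named after its value was seen, was at 0.95. Prim2, a subunit of DNA primase, and Fn3krp, a ketosamine kinase, each had reads in all 5 sham libraries and in 1 TAC library (-2.18 each; 0.281 and 0.32).

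Junctions whose ends meet no annotated exon leaned low. Of 15 such junctions, 13 had negative and 2 positive fold changes, where 56.4% of all 1717 were positive, and the median was -0.74 against 0.12 over all. At an unadjusted p under 0.05, 6 were lower and none higher, against 2.85% and 5.13% over all. Their summed normalized reads were 43.0, 50.3, 29.5, 29.5 and 43.3 in sham and 24.5, 9.54, 15.3 and 19.3 in TAC, with no overlap and a ratio of means of 0.438. Of the 15, 11 span 41 to 72 bp, and their hosts include the noncoding RNAs Malat1 and Rn7sk. All 15 are counted among the 1717, but whether they are back-splices of a circular RNA was not tested. Each had 3 to 51 reads in the sham libraries together.

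One of them, of 45 bp in the nuclear long noncoding RNA Malat1 (chr19:5801899-5801943), was read 5, 4, 1, 3 and 5 times in the sham libraries and not in TAC, at least 7.05-fold lower against the same floor (limma adjusted p = 0.0509). Another Malat1 junction of 57 bp had 20 sham and 4 TAC reads (-2.20, 0.281), and the third, named after its values were seen, had 5 and 3 (-0.29). Rn7sk, the small nuclear RNA that holds back the elongation factor P-TEFb, had 9.34, 11.0, 10.4, 3.05 and 17.5 in sham and 1.69, 2.93, 2.18 and 3.85 in TAC at a junction of 59 bp (-1.64 ± 0.53, 0.281). A single sham library, replicate 4, lay within the TAC range of Rn7sk.

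A read in every TAC library and in no sham library was found for 3 circular RNAs, of which 2 are described. Lncppara, a noncoding transcript, had 4, 3, 1 and 2 reads (at least 2.98-fold higher against the floor of 3 reads over the 5 sham libraries, limma adjusted p = 0.342). S100pbp had 4, 1, 2 and 1 (at least 2.43-fold higher, limma adjusted p = 0.499). In all, 7 circular RNAs had 0 reads in all sham libraries and 3 in all TAC libraries, and the deeper TAC libraries gave more chances of a read. The floors cover counting error only.

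The 10 most abundant circular RNAs lay between -0.86 and 0.61. Exon 2 of Nfix, which encodes a member of the nuclear factor I family of transcription factors, took 3.36% of all reads, with 186, 250, 154, 227 and 215 normalized reads in sham and 183, 220, 147 and 166 in TAC. The groups overlapped (-0.20 ± 0.14, limma adjusted p = 0.816). Adgre1 was the lowest of the 10, followed by Med13l. Nfkb1, a subunit of the inflammatory transcription factor NF-kappa-B, was the highest at 0.61, with 18.7, 29.9, 39.0, 15.3 and 23.0 in sham and 44.8, 27.1, 46.5 and 31.5 in TAC (limma adjusted p = 0.596). Lrch3 was at 0.45, Mmp15 at 0.42, Rnf169 at 0.14, Fbxw4 at -0.27 and Elf2 at -0.30. Amotl1 was at 0.07 and at -0.0096 without TAC replicate 2.

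Cell type markers were followed through the host genes. Of 43 listed resting fibroblast markers, 12 hosted a circular RNA, Dcn, Fbn1, Gli3 and Svep1 among them; Pdgfra, Tcf21 and Col1a1, which define these cells, had none among those analysed. A gene without a circular RNA may still be expressed, so the labelled cell type could be checked only in part. The 19 circles of these hosts summed to 190.9 to 290.7 in sham and 186.6 to 260.4 in TAC, and 8 had positive and 11 negative fold changes. Svep1, a large adhesion protein of the matrix, had 5.61, 1.57, 7.81, 6.11 and 8.29 in sham and 11.0, 9.54, 13.8 and 12.8 in TAC for exons 2 and 3, with no overlap (1.09 ± 0.49, limma adjusted p = 0.539). Abca8b, a lipid transporter, was at -1.54 (0.609).

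Activated fibroblast and myofibroblast hosts had 7 circles of 5 genes out of 40, 6 positive and 1 negative, and none passed the test. Their sums were 38.3, 29.9, 24.3, 31.6 and 17.5 in sham and 43.1, 27.9, 42.8 and 27.0 in TAC, overlapping. Postn, Acta2 and Col8a1, which myofibroblasts are known for, had no circle among those analysed. Itgbl1, which encodes a matrix protein related to integrin beta chains, had 1.69, 2.20, 12.3 and 2.57 in TAC and 0 to 1.87 in sham (1.79 ± 0.75, 0.499), the highest value being that of TAC replicate 3. Tns3, tensin 3, had 3.14 to 5.61 in sham and 8.07 to 11.8 in TAC for exons 18 to 20, with no overlap (0.99 ± 0.52, limma adjusted p = 0.667). Its other circles, named after their values were seen, were at -0.07 (exons 14 to 16, means of 15.6 and 13.6) and 0.12 (exons 11 to 16). All Tns3 circles together had means of 21.9 in sham and 24.6 in TAC.

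Cardiomyocyte hosts had 25 circles of 14 genes out of 48, 11 positive and 14 negative, with a median of -0.15; 2 passed the test, both of Ttn. Their summed normalized reads were 96.2, 110.0, 166.6, 89.6 and 75.6 in sham and 63.4, 70.4, 46.5 and 82.2 in TAC. TAC replicate 4 lay above sham replicate 5, and the ratio of means was 0.61. Without the 3 Ttn circles, 11 were positive and 11 negative, the sums were 47.0 to 91.1 in sham and 39.9 to 61.7 in TAC, and the ratio was 0.821. Leaving out sham replicate 3 as well gave 0.936, an alternative chosen after seeing the data like the other ratios without 1 library. Myh6, Tnnt2 and Actc1 had no circle among those analysed. Several of these hosts, such as Atp2a2 and Camk2d, are expressed outside cardiomyocytes too, and the part of these hosts' level in the Ttn result was not tested.

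Macrophage hosts had 30 circles of 13 genes out of 38, 11 positive and 19 negative, with a median of -0.31 against 0.12 over all; 1 was higher and 5 lower at an unadjusted p under 0.05 (shares over all 1717, 5.13% and 2.85%), and none passed the test. The sums were 156.0, 193.2, 98.1, 169.0 and 152.9 in sham and 102.3, 137.9, 60.3 and 103.4 in TAC. Sham replicate 3 lay below 3 TAC libraries; the ratio of means was 0.656, and 0.744 without TAC replicate 3. The 5 lower circles came from Ikzf1, F13a1 and Adgre1, and the part of macrophage RNA in these values was not tested. The 1 higher was of Dock10, a guanine nucleotide exchange factor (1.66, limma adjusted p = 0.554). Mrc1 and Mertk, surface receptors of resident macrophages, summed to 0.95 and 1.06 times sham over their 2 and 3 circles; they were named after their values were seen.

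Other cell types had fewer circles. Mural hosts had 5, of 3 genes out of 18, with sums of 18.7 to 29.9 in sham and 9.54 to 16.9 in TAC and no overlap (ratio 0.568); 1 was positive and 4 negative. Gucy1a2, a subunit of the nitric oxide receptor, was at -1.19 for exons 2 and 3 and at 0.38 for exon 4, and Dlc1, which many cells express, was at -1.15 and -0.93. The remaining mural circle, of Abcc9, was at -0.05; it and Gucy1a2 exon 4 were named after their values were seen. Lymphoid and other leukocyte hosts had 8 circles of 4 genes out of 33, 4 of each sign. Their sums were 30.4 to 38.3 in sham and 42.8 to 48.4 in TAC, also with no overlap (ratio 1.33). Of the 8, 3 were of Vav3, which other cells express too. Summed, these 3 had a mean of 14.7 in sham and 26.1 in TAC, beside 34.3 and 45.7 for the list. Nearly all of the list's difference thus lay in Vav3. Ikzf1, the blood cell lineage factor described above, was counted with the macrophage hosts and not in this list. Its circle fell from a mean of 13.1 in sham to 3.90 in TAC, and a leukocyte sum that includes it was not taken. Endothelial hosts had 17 circles, 9 positive and 8 negative (ratio 1.12), with Efnb2 at the top and Npr3, a natriuretic peptide clearance receptor, lowest at -1.32. The 1 Schwann and neural circle, of the sodium channel gene Scn7a, was at -0.84, and no epicardial or adipocyte host had one. Of the mural, lymphoid, endothelial and neural circles, none passed the test.

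**Figure D3:**
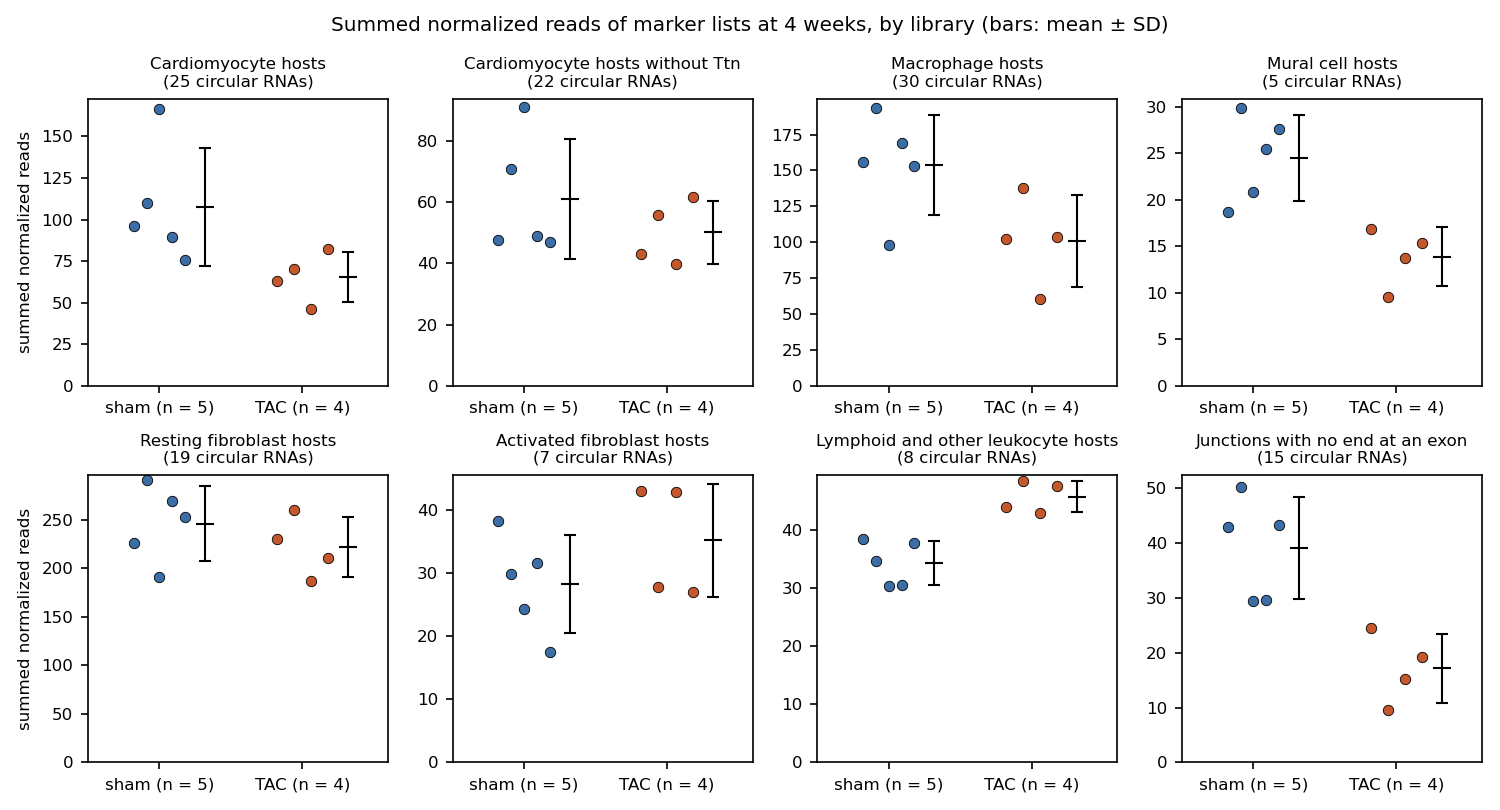
Summed normalized reads (y axes from 0, each with its own scale) of the circular RNAs of marker host genes, 1 point per library, with mean and SD beside 5 sham and 4 TAC libraries. Mural hosts and junctions with no end at an exon lie lower in all TAC libraries, and lymphoid hosts, with Vav3 and without Ikzf1, higher. Cardiomyocyte hosts without Ttn overlap.

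Pathway lists of host genes were read against all circular RNAs, of which 56.4% had positive fold changes, with a median of 0.12, and 5.13% were higher and 2.85% lower at an unadjusted p under 0.05. None of their members passed the test except Ttn in the list of widely reported circular RNA hosts. Chromatin and Mediator hosts had the most circles, 86, with 54 positive, 32 negative, a median of 0.32, and 9 higher and 2 lower at an unadjusted p under 0.05, against 5.13% and 2.85% over all. Beside Phf21a, that list held Zmynd11, a reader of methylated histone H3. Its circle of exons 2 and 3 had 15 TAC reads and 3 sham reads, all 3 in sham replicate 3 (2.09, limma adjusted p = 0.388). The other Zmynd11 circle, named after its value was seen, was at -0.64. The most abundant member of the list, Med13l, was at -0.79, and the list's summed reads had a ratio of 1.02.

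Cell cycle, mitosis and replication hosts had 15 circles, 9 positive and 6 negative, 4 of them higher at an unadjusted p under 0.05, against 5.13% over all (median 0.40). Esco1, an acetyltransferase of sister chromatid cohesion, had 8 TAC reads and no sham reads in exons 5 to 9 (1.64, limma adjusted p = 0.573) beside its other circle. Cdk17, a cyclin-dependent kinase, had 6.54, 9.43, 13.9, 10.2 and 2.76 in sham and 16.9, 19.8, 22.5 and 10.9 in TAC for exons 12 to 14 (1.11 ± 0.43, 0.467). Bub1b, the spindle checkpoint kinase, was at -0.72 for exons 17 to 19. All 3 of its circles were negative, from -1.20 to -0.72, the others being named after their values were seen. The list's sums were 26.7 to 58.1 in sham and 38.5 to 67.5 in TAC.

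Ubiquitin ligase and deubiquitinase hosts had 23 of 40 positive, with 4 higher and none lower at an unadjusted p under 0.05, against 5.13% and 2.85% over all. Klhl8, an adaptor of a cullin ligase, had both its junctions among those higher (1.79 and 1.73). They share the chr5 position 103885907 and span 384 and 381 bp, and whether they are separate circles was not tested. DNA repair hosts had 10 of 14 positive, with Fancl highest and Uimc1 lowest of those named (-1.02). RNA-binding, splicing and polyadenylation hosts had 31 of 51 positive and sums of 180.7 to 231.7 in sham and 231.2 to 251.3 in TAC (ratio 1.17); Cnot6l (1.16) and R3hcc1l (1.68) stood beside Cnot4.

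Endocytosis and phosphoinositide kinase hosts had 37 of 67 positive, with 5 higher and 3 lower at an unadjusted p under 0.05, near the 5.13% and 2.85% over all. Reps1, which binds endocytic adaptors, was at 1.75. Receptor tyrosine kinase, ephrin and MAPK hosts had 19 of 32 positive. Circles of the receptors Axl (exons 13 and 14) and Insr (exons 11 and 12) were at -1.41 and -1.42, each with reads in 1 TAC library. The other Insr circle, named after its value was seen, was at 0.21. Both Insr circles together had means of 13.4 in sham and 13.6 in TAC. Wnt and Hippo hosts had 13 of 27 positive, with the kinases Mark3 at 1.66 and Stk3 at 1.33 and the polarity scaffold Dlg5 at 1.63.

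Extracellular matrix hosts had 8 positive and 9 negative of 17 circles, 3 of them higher at an unadjusted p under 0.05, against 5.13% over all, and a median of -0.15. Of those 3, 2 were of Svep1 and 1 of Itgbl1. TGF-beta, BMP and SMAD hosts had 13 positive and 9 negative of 22, none with an unadjusted p under 0.05, and summed to 0.985 times sham. Smad4, the common partner of receptor-activated SMADs, was at 1.06 for exons 6 to 8, with 7.47 in sham replicate 1 and 0 to 0.921 in the other sham libraries, and at -0.13 with junction reads as a covariate. Crim1, which binds bone morphogenetic proteins, had its circle of exons 3 and 4 at 1.05 and that of exons 3 to 5 at -1.08. Hosts widely reported to form circular RNA had 52 of 85 positive and a ratio of 0.907.

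Circles of 1 host did not always move together. Of 320 hosts with at least 2 circular RNAs, 131 had fold changes of 1 sign and 189 of both. Where 1 value is given above for a host without exons, it belongs to a single circle, and other circles of that host may differ. In 9 hosts at least 2 circles had an unadjusted p under 0.05, and in each of the 9 these had the same sign: Ttn, Malat1, Adgre1 and F13a1 lower, and Esco1, Klhl8, Prex2, Psd3 and Svep1 higher (Prex2 and Psd3, both of which regulate small GTPases, were named after their values were seen). Circles of 1 host come from 1 pool of transcripts and are not replicates of each other. Those of Klhl8 are nearly the same junction, with a shared end and spans of 384 and 381 bp.

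The 6 Adgre1 circles summed to 67.3, 106.8, 34.7, 85.5 and 68.2 in sham and 49.9, 68.2, 16.7 and 41.8 in TAC, with 5 of 6 negative. The 8 F13a1 circles summed to 31.8, 29.9, 27.8, 31.6 and 26.7 in sham and 15.2, 25.7, 10.2 and 20.6 in TAC. For F13a1 the sums did not overlap, while TAC replicates 1, 2 and 4 lay within the sham range of Adgre1. Arhgap10, with the most circles of any host, 11, had 6 positive and 5 negative, from -1.31 to 1.91, and its summed reads were 28.5 to 51.4 in sham and 23.7 to 39.2 in TAC.

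**Figure D4:**
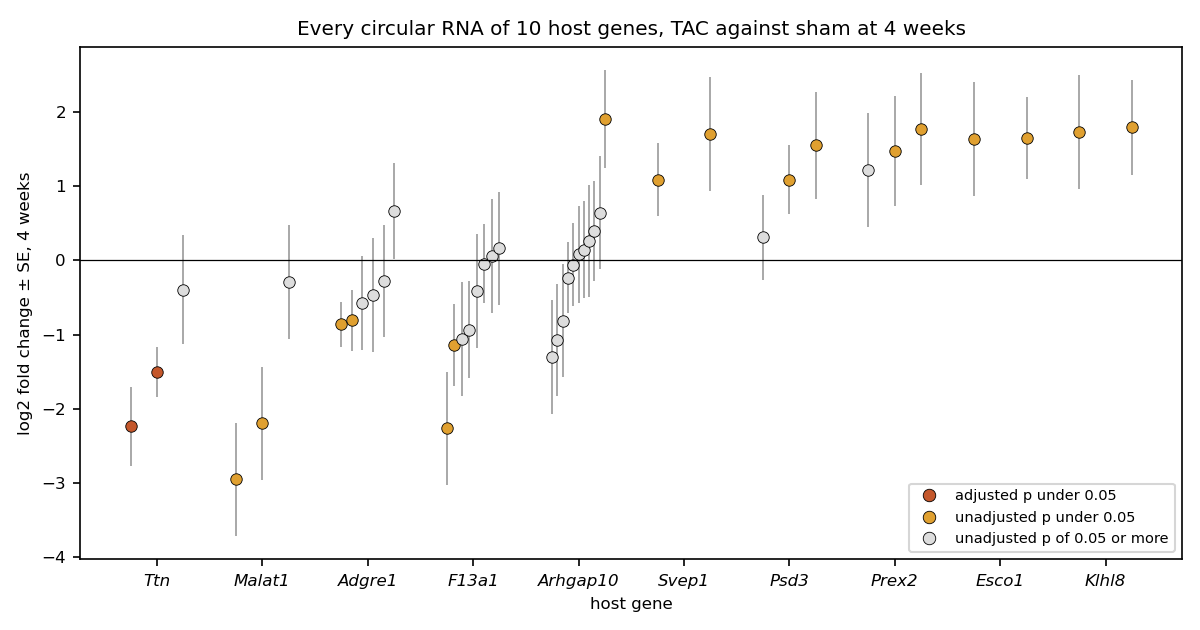
Log2 fold change with its SE (y axis) of every circular RNA of 10 host genes (x axis), TAC against sham at 4 weeks, coloured by test result. The 3 Ttn circles and 3 Malat1 junctions all lie below 0, the circles of Svep1, Psd3, Prex2, Esco1 and Klhl8 above it, and those of Arhgap10 on both sides.

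The circular RNAs with an unadjusted p under 0.05 were also set against the rest for their structure, as a description. Their p is the measure that chose them, so no test is given. The median genomic span was 6241 bp over all, 5493 bp for the 88 higher and 2334 bp for the 49 lower. The lower set includes 6 junctions of 45 to 63 bp with no end at an exon, and the higher set none. Spans without them were not compared. Single-exon circles made up 6.12% of all, 4.55% of the higher and 14.3% of the lower. The median GC content of the spliced sequence was 49.3%, 45.7% and 50.1%, and the median spliced length 420, 412.5 and 372 bases. Low and high members were both scarce, with medians of 2.67 and 2.39 reads per library against 2.11 over all.

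The same contrast at 1 week (4 TAC and 4 sham libraries) and 8 weeks (3 and 4) uses other libraries. Limma called 25 circular RNAs at 1 week (1.46%) and none at 8 weeks (0.0%), where 104 had an unadjusted p under 0.05. Ttn exons 85 to 118 was at -1.55 ± 0.36 at 1 week (limma adjusted p = 0.0075) and -0.98 ± 0.39 at 8 weeks (limma adjusted p = 0.753). Exons 84 to 118 was at -1.45 ± 0.56 and -1.46 ± 0.61 and passed at neither time (limma adjusted p = 0.189 and 0.753). The difference between times itself did not pass for either circle: 4 weeks minus 1 week was 0.04 and -0.78 (limma adjusted p = 0.996 and 0.903), and 4 weeks minus 8 weeks was -0.53 and -0.77 (0.90 and 0.908).

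No circular RNA passed the test of a difference between the 4-week effect and that at 1 week or at 8 weeks (0.0% each by limma; 138 and 109 had an unadjusted p under 0.05), so none can be called particular to 4 weeks. Efnb2 came nearest, at -1.36 ± 0.63 at 1 week and 2.23 at 4 weeks, a difference of 3.58 (limma adjusted p = 0.0658). Without 4-week sham replicate 3 or 5 this difference passed, at 3.89 and 3.82 (limma adjusted p = 0.0203 and 0.0318). In the other alternatives run for it, the Efnb2 difference did not pass. Their limma adjusted p ran from 0.0525 without TAC replicate 2 to 0.412 with a pseudocount of 0.1. Arhgef40, Bub1b exons 17 to 19 and Tcf20 exons 2 and 3, called higher at 1 week, were at -0.88, -0.72 and -0.46 at 4 weeks (limma adjusted p of the difference 0.283 each). Against 8 weeks, the smallest limma adjusted p, 0.193, was shared by Malat1 (45 bp), Pik3c2a, Rabep1 and Parvb, a parvin that links integrins to actin.

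Of the 24 circular RNAs chosen for the smallest p at 4 weeks, 17 had the same sign at 1 week and 12 at 8 weeks; over all 1717 the sign was shared by 54.2% and 50.5%. The 88 higher ones had a median log2 fold change of 0.24 at 1 week and 0.06 at 8 weeks, and the 49 lower ones -0.51 and -0.23. In the other direction, the 25 called at 1 week had the sign of that time in 18 cases at 4 weeks. Of these 25, 4 had an unadjusted p under 0.05 at 4 weeks, against 137 of all 1717. Svep1 exons 2 and 3 was at 1.51, 1.09 and 1.05 at the 3 times and Med13l at -0.71, -0.79 and -0.24, while Adgre1 exons 11 and 12 was at 0.20, -0.86 and 0.01.

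**Figure D5:**
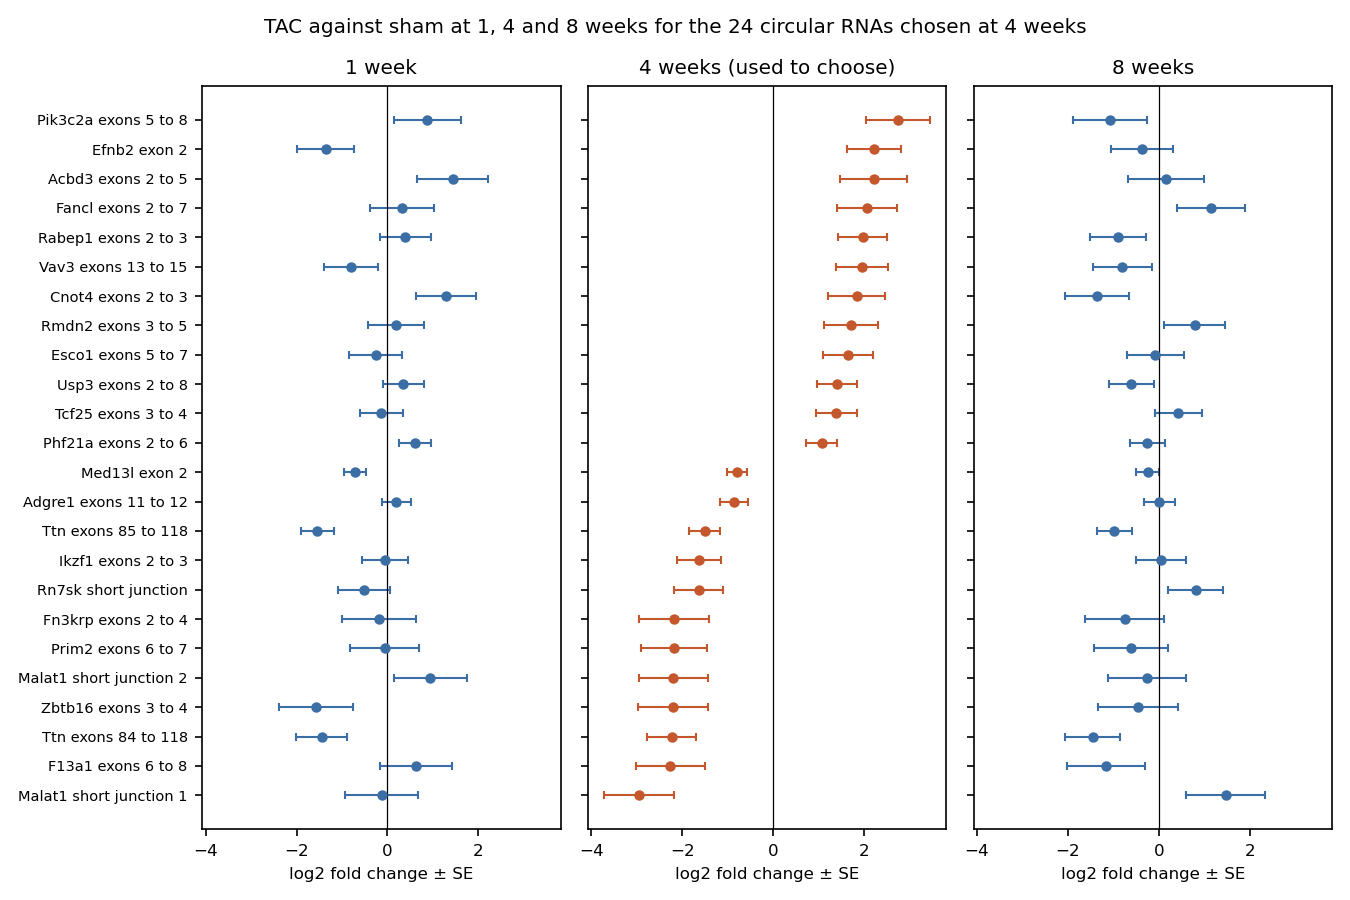
Log2 fold change with SE of TAC against sham (x axes) at 1, 4 and 8 weeks for the 24 circular RNAs (y axis) with the smallest p at 4 weeks, whose 4-week values chose them. Both long Ttn circles lie below 0 at all 3 times, at -0.98 to -2.23, while Efnb2 and Pik3c2a lie on both sides of 0.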

How the data were processed

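The deposited table lists back-splice junctions in the 24 libraries; the caller is known here only from the name of the deposited file, which gives DCC. The authors' values are a signal, normalized junction coverage: once the offset of 0.01 is taken off, 100% of values equal a whole number of reads times a step fixed for the library (tolerance 0.05 reads), so the reads were recovered. Trimming with Trimmomatic and alignment with STAR to mm10 are named in the submitters' processing notes; caller settings and normalization are not stated there.

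The offset was removed and log2(value + 0.5) was fitted with limma 3.58.1 (R 4.3.3, intensity trend, 6 groups, 24 libraries), with Benjamini-Hochberg adjustment over 1717 circular RNAs and calls at an adjusted p under 0.05. A filter of 2 reads in 3 libraries removed none. Tables were handled with Python 3.11.15 and pandas 2.3.3. The fit was also run on simulated reads with known changes, drawn with the same spread setting for all circular RNAs. Such reads cannot show how far the calls depend on single libraries. Exons were taken from GENCODE for mm10 (both junction ends at exons of the host for 1666, 1 end for 36). Junctions with no exon match have no sequence here.

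Depth ran from 3618 to 9146 junction reads over the 9 libraries, so precision is limited by counting for most circular RNAs. The 16 within-group pairs of libraries all differed beyond sampling noise (largest chi-square p = 9.01e-06). Libraries with the same replicate number in their titles did not deviate together, and pairing by the numbers in the library names was not tested. Named circular RNAs are those called, the 12 with the smallest p in each direction, the 10 most abundant, up to 3 with the smallest p from each list, every circle of a called host, those read in all libraries of 1 group and none of the other, and the 4 with the smallest p for each difference between times. The members and lists were chosen with earlier results of these data known. Alternatives covered scaling, pseudocount, filter, test, depth as a covariate, a replicate block and each library left out. Some members and lists that the rule names are not reported here.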

Additional observations from a re-analysis of the deposited data

Results flagged for a closer look

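Of 194 groups of values checked for 1 library that stands apart (Dixon's gap at the 95% level, 4 TAC or 5 sham libraries), 23 were marked; chance marks about 1 in 20 groups, and counts of a few reads are often tied at 0. For the called circular RNA of Ttn exons 85 to 118, TAC replicate 3 stood apart at 4.36 normalized reads, against 12.7 to 14.1 in the other TAC libraries. Its call was lost without that library.

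Where the other libraries of the group held no reads at all, the value that stood apart was the only one above 0. This was so in TAC replicate 2 for Prim2 (2.20), F13a1 exons 6 to 8 (0.734) and Axl (2.20), in TAC replicate 4 for Fn3krp (1.93) and Insr (1.28), and in TAC replicate 1 for Parvb (1.69) and Crim1 exons 3 to 5 (1.69). Among sham libraries it was so in replicate 3 for Zmynd11 (2.60) and Adgrf5 (1.74) and in replicate 5 for Svep1 exons 18 to 21 (0.921) and the second Klhl8 junction (1.84).

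In the remaining cases the group had reads in other libraries too. Sham replicate 3 stood high for Esco1 exons 5 to 7 (9.55) and Rmdn2 (10.4), and sham replicate 1 for Smad4 exons 6 to 8 (7.47). TAC replicate 3 stood high for Itgbl1 (12.3) and the second Klhl8 junction (5.08) and low for Amotl1 (18.2) and the sum of Wnt and Hippo hosts (69.7). TAC replicate 2 stood high for Klhl8 exon 2 (8.07), Dock10 (3.67) and Ets1 exons 2 to 5 (6.60). The sum of endothelial hosts was low in TAC replicate 1 (46.5).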

How the results depend on the processing

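Against 2 calls, the count was 0 with a pseudocount of 0.1 or with junction reads as a covariate, 6 with a pseudocount of 1, with TMM scaling or with median-of-ratios size factors, 7 with limma-voom and 14 with only the 9 libraries of this time; total-read scaling kept 2 calls and a minimum mean of 5 reads gave 3. Leaving out 1 library gave 0 to 4 calls: 0 without TAC replicate 3, sham replicate 1 or sham replicate 4, 1 without TAC replicate 2, 3 (neither of them Ttn) without sham replicate 3 and 4 without sham replicate 2 or 5. Libraries with the same replicate number in their titles did not deviate together (correlations -0.077 to 0.043). The sham library names carry other numbers than the titles, and pairing by those was not tested. A fit with the title number as a replicate block on the 4-week libraries gave 10 calls. The count for the difference from 1 week was 0 to 1 with 1 library left out (1, Efnb2, without sham replicate 3 or 5) and 0 otherwise, and that from 8 weeks was 0 throughout.

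Of the named circular RNAs, 5 values changed sign; the cause was not tested. With the covariate Smad4 exons 6 to 8 was at -0.127 and Flna at -0.128. Ttn exons 104 to 110 ranged from -0.961 to 0.229 and Amotl1 from -0.0096 to 0.293 over the libraries left out. The 2 called Ttn circles ranged from -1.66 to -1.13 and from -2.55 to -1.73 and kept a call in 14 and 12 of 20 alternatives. edgeR and DESeq2, planned as alternatives, were not run. Counting depth limits circular RNAs with a mean under 5 reads, 1393 of 1717.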
